A study of Mus musculus with 8 samples.

Results

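Lysosomal enzymes and membrane proteins were examined in the PFC of mice that overexpressed *Rnf146*, as a group of 37 genes listed by symbol. The group holds acid hydrolases, their cofactors and sorting factors, proteins of the lysosomal membrane and the transcription factor *Tfeb*. All 37 genes had values, of 15039 genes measured in all. The 8 libraries came from WT male C57BL/6NCrljOri mice that were 6 weeks old when an AAV2/1 vector was injected into the PFC on both sides. In 4 libraries the vector carried mouse *Rnf146* and eGFP, and in the 4 control libraries it carried eGFP alone. The hSyn promoter drove both vectors, a promoter used for expression in neurons, whereas RNA was taken from whole dissected tissue with all its cell types 4 weeks after the injection. Whether 1 library stands for 1 mouse is not given in the labels. The p-values therefore measure the spread of the differences between libraries with the same replicate number.

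Lysosomes are acidic organelles in which hydrolases break down proteins, glycans, glycosaminoglycans and lipids. Most of these enzymes are soluble, are tagged with mannose 6-phosphate in the Golgi and are carried to the lysosome by receptors for that tag. Transporters and channels in the lysosomal membrane export the products and ions. TFEB is a transcription factor that activates many of these genes together through a motif in their promoters, the CLEAR element. Loss of single members causes lysosomal storage disorders, most of which affect the brain, and in brain tissue these genes are used by neurons and, often at higher levels, by microglia.

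The deposited values are on a log2 scale and had been centred within pairs of libraries with the same replicate number, so that the 2 values of a pair added up to the same number in every pair of a gene. A gene therefore holds 4 independent pair differences, given here as the Rnf146 value minus the eGFP value. Each gene was tested with limma in a model that held the pair as a replicate block, and a gene counts as called where its p, adjusted over all 15039 genes, did not exceed 0.1. *Rnf146*, the overexpressed gene, was higher in each pair, by 2.64 ± 0.13 on average (SD over the 4 pairs, adjusted p = 3.2e-07). The paper states that the sequenced mice were ones with verified *Rnf146* overexpression and social deficits, so this difference is no independent check. All 10 markers of cortical excitatory neurons had values, as the tissue label implies, and so did all 9 markers of striatal neurons. Of the septal and basal forebrain markers, 5 of 7 had values and all 5 were called higher in Rnf146 libraries, with a median difference of 0.51 (*Zic1* 0.99, *Zic2* 0.53, *Slc5a7* 0.51, *Ngfr* 0.39 and *Zic4* 0.34). Without pair 4 none of these 5 passed the threshold in limma.

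Of the 37 lysosomal genes, 1 was called. *Grn* was lower in Rnf146-overexpressing mice, and 0 genes of the group were called higher. Over all genes, 1.25% were called, 0.432% lower and 0.818% higher. An unadjusted p of 0.05 or less was reached by 5 of the 37 genes, against 12.4% of all genes. These were *Grn*, *Man2b1* and *Mcoln1* with lower values and *Gaa* and *Scarb2* with higher values. The median difference of the 37 genes was -0.015, and it was -0.019, 0.010, -0.015 and 0.015 in the 4 pairs, beside a median of 0.00086 over all genes. In 22 of the 37 genes the mean difference was below 0 and in 15 it was above 0, against 7441 and 7598 of all 15039 genes. After the centring, the values of the 2 groups cannot overlap where all 4 pairs have the same direction, whatever the uncentred levels were. This held for 9 genes. Of these, 5 were lower, against 10.2% of all genes, and 4 were higher, against 10.4%.

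**Figure D1:**
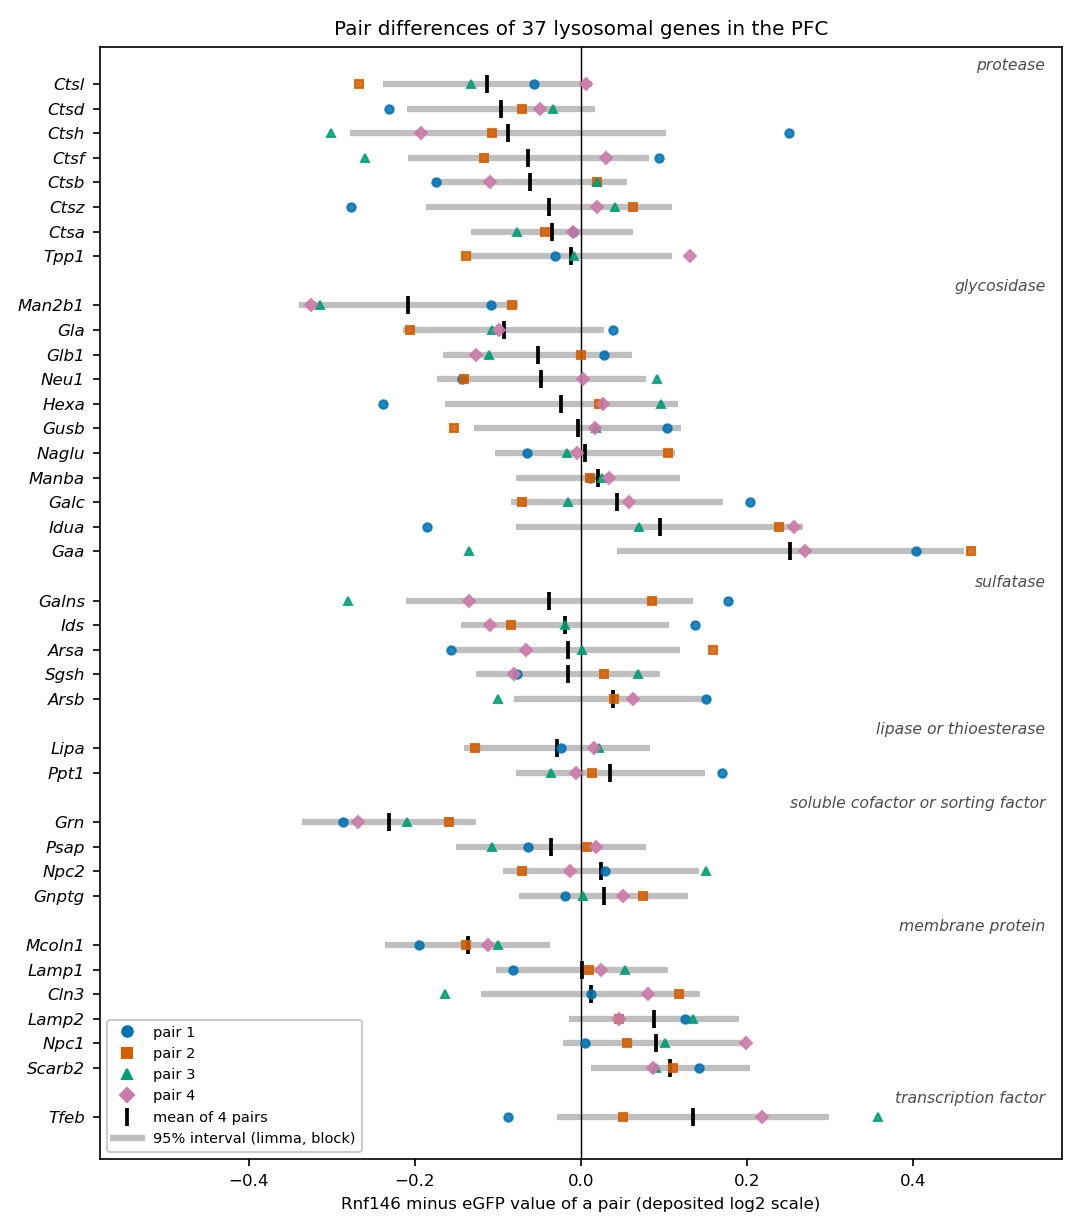
Each row is 1 lysosomal gene, and the x axis gives the Rnf146 minus eGFP difference on the deposited log2 scale for pairs 1 to 4 (coloured symbols), with the mean of the pairs (black bar) and limma's 95% interval with the block (grey). The intervals of *Grn*, *Man2b1* and *Mcoln1* lie below 0 and those of *Gaa* and *Scarb2* above 0, and all other intervals include 0.

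The differences were small for most of the group. The 95% interval of the mean difference lay within ±0.25 for 31 of the 37 genes, and the median distance from the mean to an interval's end was 0.12. The SD of the 4 pairs exceeded the size of the mean difference in 28 genes. It ran from 0.011 for *Manba* to 0.27 for *Gaa*. In the test without the block, which takes the centred values for 8 independent libraries, 9 of the 37 genes were called, 5 lower and 4 higher, against 21.5% of all genes.

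**Figure D2:**
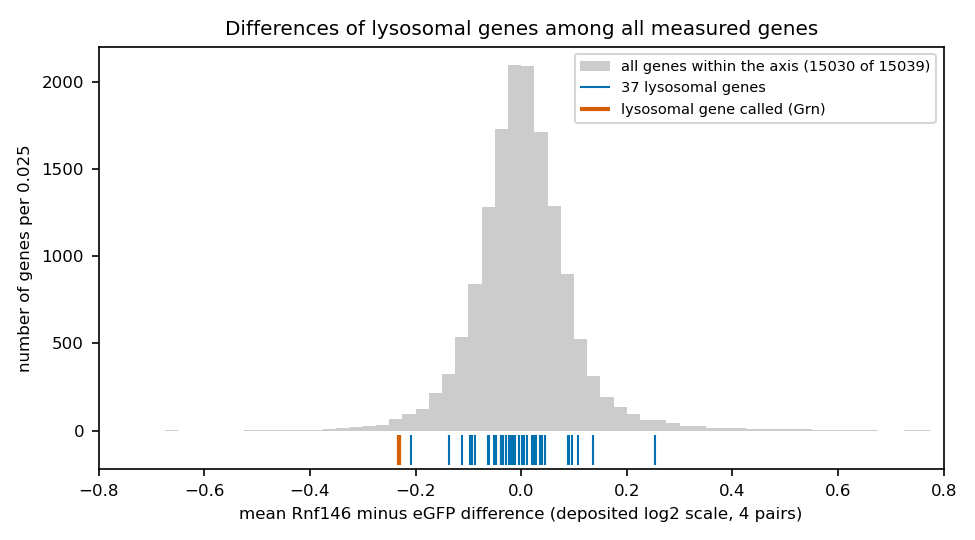
The histogram shows the mean Rnf146 minus eGFP difference (x axis, deposited log2 scale) of all genes within the axis, and the ticks below it mark the 37 lysosomal genes. The lysosomal genes lie between the -0.23 of *Grn*, drawn in orange, and the 0.25 of *Gaa*, around the peak of all genes near 0.

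*Tfeb*, the regulator of the group, had values of 8.91, 8.84, 8.69 and 8.76 in eGFP libraries 1 to 4 and of 8.82, 8.89, 9.04 and 8.97 in Rnf146 libraries 1 to 4. It was lower in pair 1 and higher in the other 3 pairs, and the groups overlapped. The pair differences were -0.088, 0.051, 0.36 and 0.22. The SD of 0.19 over the 4 pairs exceeded the mean of 0.14, with a 95% interval from -0.029 to 0.30 and an adjusted p of 0.487 from limma. Its paralogs *Tfe3* and *Mitf*, which bind the same element, had mean differences of 0.075 ± 0.20 and 0.027 ± 0.22, also smaller than the spread. The mean level of *Tfeb*, 8.87, was in the lowest of 4 equal classes of expression level, where changes can be understated on this scale.

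Promoter windows of 300 bases, from 250 bases before to 50 bases after the start of a RefSeq gene (build GRCm38.p6), were matched for 33 of the 37 genes by symbol, in 39 windows. *Ctsb*, *Ctsh*, *Galns* and *Npc1* had none. The palindromic core of the CLEAR element, TCACGTGA, was searched, as was the E-box it contains, CACGTG. Both read the same on the 2 strands. The core was in a window of 6 of the 33 genes (18.2%), *Cln3*, *Ctsa*, *Ctsd*, *Gla*, *Gnptg* and *Mcoln1*, against 2.07% of the 11133 measured genes with a window and 0.974% of all 32851 windows. The E-box was in a window of 14 of the 33 genes (42.4%), against 11.5% of the measured genes and 7.15% of all windows. The 6 genes with the core had mean differences from -0.14 for *Mcoln1* to 0.027 for *Gnptg*, with a median of -0.064, and those without it had a median of -0.011. Over all measured genes the medians were 0.0085 with the core and 0.00056 without it. The genes with the core thus had values on both sides of 0, and no difference between genes with and without it was tested.

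The windows of the genes on which the values below turn are shown 5′ to 3′ on the gene's strand, with each CLEAR core or E-box in capitals. Of the 6 genes with the core, *Mcoln1* and *Ctsd*, which had the lowest mean differences of the 6, are shown. Windows of the other core genes are not shown, among them *Cln3* and *Gnptg* with means above 0. In the *Mcoln1* and *Ctsd* windows the core begins 46 and 99 bases before the start, and each holds a further E-box. The *Gaa* window holds 1 E-box, 140 bases before the start. In the *Grn*, *Man2b1* and *Scarb2* windows neither run of letters was found, which says nothing about binding of a factor there. Build GRCm38.p6 applies to these positions only.
Mcoln1 promoter (chr8:3500269-3500568, plus strand): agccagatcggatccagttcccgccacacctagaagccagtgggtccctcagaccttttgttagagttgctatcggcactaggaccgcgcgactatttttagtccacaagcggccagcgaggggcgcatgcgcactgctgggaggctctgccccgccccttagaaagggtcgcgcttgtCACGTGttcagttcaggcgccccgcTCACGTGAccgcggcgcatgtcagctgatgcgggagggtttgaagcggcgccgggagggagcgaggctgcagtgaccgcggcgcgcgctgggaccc
Ctsd promoter (chr7:142387778-142388077, minus strand): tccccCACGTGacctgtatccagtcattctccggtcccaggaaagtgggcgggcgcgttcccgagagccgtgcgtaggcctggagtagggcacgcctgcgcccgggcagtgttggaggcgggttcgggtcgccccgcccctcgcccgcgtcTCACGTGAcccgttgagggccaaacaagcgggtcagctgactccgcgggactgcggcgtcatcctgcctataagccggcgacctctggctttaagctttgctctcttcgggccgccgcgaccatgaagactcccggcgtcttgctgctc
Gaa promoter (chr11:119267713-119268012, plus strand): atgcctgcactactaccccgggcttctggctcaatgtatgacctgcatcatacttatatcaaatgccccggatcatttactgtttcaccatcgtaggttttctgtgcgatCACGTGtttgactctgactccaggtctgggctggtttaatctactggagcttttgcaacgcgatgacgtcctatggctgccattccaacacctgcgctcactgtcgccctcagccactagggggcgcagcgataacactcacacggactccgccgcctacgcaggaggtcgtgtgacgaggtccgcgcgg
Grn promoter (chr11:102430257-102430556, plus strand): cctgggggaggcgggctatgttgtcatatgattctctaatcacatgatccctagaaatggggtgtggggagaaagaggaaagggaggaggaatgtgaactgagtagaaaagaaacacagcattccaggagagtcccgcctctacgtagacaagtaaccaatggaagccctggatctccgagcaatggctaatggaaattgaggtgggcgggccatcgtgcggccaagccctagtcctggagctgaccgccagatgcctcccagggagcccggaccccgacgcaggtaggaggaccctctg
Man2b1 promoter (chr8:85083019-85083318, plus strand): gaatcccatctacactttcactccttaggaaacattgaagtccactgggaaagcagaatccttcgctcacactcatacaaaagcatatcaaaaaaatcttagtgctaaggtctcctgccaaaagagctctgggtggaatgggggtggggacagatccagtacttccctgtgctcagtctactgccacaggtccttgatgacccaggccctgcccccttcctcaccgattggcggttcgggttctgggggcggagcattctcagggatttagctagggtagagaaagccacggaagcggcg
Scarb2 promoter (chr5:92505608-92505907, minus strand): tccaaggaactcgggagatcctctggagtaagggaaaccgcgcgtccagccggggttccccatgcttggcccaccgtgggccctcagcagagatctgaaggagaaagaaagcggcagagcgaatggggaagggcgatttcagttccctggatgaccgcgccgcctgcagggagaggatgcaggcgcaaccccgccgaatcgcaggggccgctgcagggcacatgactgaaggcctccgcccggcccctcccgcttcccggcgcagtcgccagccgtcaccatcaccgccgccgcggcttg

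The proteases of the group are 5 cysteine cathepsins (*Ctsb*, *Ctsf*, *Ctsh*, *Ctsl* and *Ctsz*), the aspartic protease *Ctsd*, the serine carboxypeptidase *Ctsa* and the tripeptidyl peptidase *Tpp1*. All 8 had a mean difference below 0 over the 4 pairs, against 7441 of all 15039 genes, and 0 of the 8 were called. With 1 pair left out, *Ctsz* (without pair 1), *Tpp1* (without pair 2) and *Ctsf* (without pair 3) turned to 0.041, 0.031 and 0.0026. Their median was -0.062, and it was -0.044, -0.089, -0.055 and -0.0017 in the 4 pairs. *Ctsl* had the lowest mean of the 8. Its values were 10.86, 10.96, 10.89 and 10.82 in eGFP libraries 1 to 4 and 10.80, 10.69, 10.76 and 10.83 in Rnf146 libraries 1 to 4. In pair 4 the direction was the other way by 0.0065, so the groups overlapped, and the SD of 0.12 over the 4 pairs matched the mean of -0.11 in size (adjusted p = 0.450, limma).

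*Ctsd*, the main aspartic protease of lysosomes, was lower in all 4 pairs, by -0.23, -0.071, -0.033 and -0.049. Pair 1 was the furthest from 0, and the mean of -0.096 ± 0.092 had an adjusted p of 0.475. *Ctsa*, which also protects the enzymes encoded by *Glb1* and *Neu1* in a complex, was lower in all 4 pairs as well, with a mean of only -0.035 ± 0.032. *Ctsb*, *Ctsf*, *Ctsh* and *Ctsz* had means of -0.061, -0.063, -0.087 and -0.038, each smaller than its SD over the pairs. The pairs of *Ctsh* scattered most, from -0.30 in pair 3 to 0.25 in pair 1. *Tpp1*, whose loss causes a neuronal ceroid lipofuscinosis, had the mean nearest 0, -0.011 ± 0.11, with values of 11.17, 11.22, 11.16 and 11.09 in eGFP libraries and 11.14, 11.09, 11.15 and 11.22 in Rnf146 libraries.

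Among the 11 glycosidases, which remove sugars from glycoproteins, glycolipids and glycosaminoglycans, 5 had a mean above 0 and 6 below 0, and 0 were called. The median was -0.0035. *Man2b1*, the lysosomal alpha-mannosidase (chromosome 8 of GRCm39, 85809885 to 85825361, plus strand), had values of 10.71, 10.70, 10.82 and 10.82 in eGFP libraries 1 to 4. In Rnf146 libraries 1 to 4 the values were 10.61, 10.62, 10.50 and 10.50. Every centred Rnf146 value was thus below every centred eGFP value, which restates that all 4 pairs were lower. The pair differences of -0.11, -0.083, -0.31 and -0.32 fell into 2 smaller and 2 larger ones. The mean was -0.21 with an SD of 0.13 over the 4 pairs, a 95% interval from -0.34 to -0.076 and an unadjusted p of 0.0063, and its adjusted p of 0.197 from limma missed the threshold.

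*Gaa*, the acid alpha-glucosidase that degrades glycogen in lysosomes (chromosome 11 of GRCm39, 119158708 to 119176525, plus strand), had the highest mean of the 37 genes and the largest scatter. Its values were 13.05, 13.02, 13.32 and 13.12 in eGFP libraries 1 to 4 and 13.46, 13.49, 13.19 and 13.39 in Rnf146 libraries 1 to 4. Pairs 1, 2 and 4 were higher, by 0.40, 0.47 and 0.27, and pair 3 was lower, by -0.13. The SD of 0.27 over the 4 pairs exceeded the mean of 0.25 (adjusted p = 0.309, limma). Without pair 3, the mean was 0.38 and the adjusted p was 0.057, so that it was called in the fit on the other 3 pairs. Leaving out the only lower pair was bound to raise the mean. Without pair 1, 2 or 4 the mean was 0.20, 0.18 or 0.25, and *Gaa* was not called (adjusted p = 0.446, 0.693 and 0.579, limma).

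The other 9 glycosidases had means between -0.093 for *Gla* and 0.095 for *Idua*, and adjusted p-values of 0.517 or more. *Gla*, the alpha-galactosidase of Fabry disease, was higher in pair 1 by 0.038 and lower in the others. *Idua*, the alpha-iduronidase, was lower in pair 1 by -0.19 and higher in the others, by up to 0.26. *Glb1*, *Neu1*, *Hexa* and *Gusb*, which encode the beta-galactosidase, the sialidase, the hexosaminidase alpha subunit and the beta-glucuronidase, had means of -0.052, -0.047, -0.024 and -0.0035. *Naglu*, *Manba* and *Galc* had means of 0.0051, 0.020 and 0.044. *Manba*, the beta-mannosidase, was higher in all 4 pairs, but by 0.034 at most.

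The sulfatases remove sulfate groups from glycosaminoglycans or, in the case of *Arsa*, from sulfatide, a lipid of myelin. All 5 lay near 0, and 0 were called. *Galns* had the lowest mean, -0.038 ± 0.21, with values of 8.97, 9.02, 9.20 and 9.13 in eGFP libraries and 9.15, 9.11, 8.92 and 8.995 in Rnf146 libraries. *Arsb* had the highest, 0.039 ± 0.10, with values of 11.47, 11.53, 11.60 and 11.52 in eGFP libraries and 11.62, 11.57, 11.50 and 11.58 in Rnf146 libraries. In both genes pairs 1 and 2 were higher and pair 3 was lower. *Ids*, *Arsa* and *Sgsh* had means of -0.019, -0.015 and -0.015. The lipid enzymes were as close to 0. *Lipa*, the acid lipase, had values of 9.71, 9.76, 9.69 and 9.69 in eGFP libraries and 9.69, 9.64, 9.71 and 9.71 in Rnf146 libraries, with a mean difference of -0.028 ± 0.069. *Ppt1*, the palmitoyl-protein thioesterase, had 11.32, 11.40, 11.42 and 11.41 in eGFP libraries and 11.49, 11.41, 11.39 and 11.40 in Rnf146 libraries, with a mean of 0.035 ± 0.092.

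Of the 4 soluble cofactors and sorting factors, *Grn* was called. *Grn* encodes progranulin, a secreted glycoprotein that is taken up into lysosomes and cut into granulins there, and whose deficiency causes frontotemporal dementia or, when complete, a ceroid lipofuscinosis. Its values were 10.84, 10.78, 10.80 and 10.83 in eGFP libraries 1 to 4 and 10.56, 10.62, 10.60 and 10.57 in Rnf146 libraries 1 to 4. All centred eGFP values were at 10.78 or more and all centred Rnf146 values at 10.62 or less, which restates that all 4 pairs were lower. The pair differences were -0.29, -0.16, -0.21 and -0.27. They averaged -0.23 ± 0.058 (SD over the 4 pairs), with a 95% interval from -0.34 to -0.13 and an adjusted p of 0.082 from limma. With any 1 pair left out, the difference stayed between -0.25 and -0.21, and the adjusted p rose to between 0.108 and 0.362 in the smaller fits, so the call needs all 4 pairs.

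*Grn* lies on chromosome 11 of GRCm39 (102321141 to 102327874, plus strand), and its exons overlap those of *Fam171a2* on the opposite strand. *Fam171a2* was called too, with differences of -0.34, -0.22, -0.39 and -0.15 in the 4 pairs and a mean of -0.28 ± 0.11 (adjusted p = 0.076, limma). The library kit keeps the strand, but whether the quantification used it is not given in the sources used here, so a share of reads counted for the other gene was not tested. Exons of another measured gene overlapped 17 of the 37 genes, but none of *Man2b1*, *Mcoln1*, *Gaa*, *Scarb2*, *Ctsd* and *Tfeb*.

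The other 3 soluble factors had overlapping groups. *Psap*, the precursor of the saposins that present lipids to their enzymes, had a mean of -0.036 ± 0.060, and *Npc2*, which hands cholesterol to *Npc1*, had 0.024 ± 0.094. *Gnptg*, a subunit of the enzyme that makes the mannose 6-phosphate tag, had the highest mean of the 4, 0.027 ± 0.043. Its values were 10.75, 10.71, 10.74 and 10.72 in eGFP libraries and 10.73, 10.78, 10.74 and 10.77 in Rnf146 libraries, which overlapped.

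Among the 6 membrane proteins, 5 had a mean above 0 and 0 were called. Of these 5, *Lamp1* turned negative without pair 2, 3 or 4 and *Cln3* without pair 2 or 4. Their median was 0.050, and it was 0.0087, 0.050, 0.072 and 0.063 in the 4 pairs. *Mcoln1*, the calcium channel TRPML1 (chromosome 8 of GRCm39, 3550452 to 3565253, plus strand), had a mean below 0. Its values were 11.27, 11.24, 11.22 and 11.23 in eGFP libraries 1 to 4 and 11.07, 11.10, 11.12 and 11.11 in Rnf146 libraries 1 to 4, lower in all 4 pairs. The differences of -0.20, -0.14, -0.10 and -0.11 averaged -0.14, more than their SD of 0.043 over the 4 pairs, but the adjusted p of 0.251 missed the threshold.

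*Scarb2*, which encodes the membrane protein LIMP-2 that carries glucocerebrosidase to the lysosome (chromosome 5 of GRCm39, 92589169 to 92654692, minus strand), had the highest mean of the membrane proteins. Its values were 11.83, 11.85, 11.86 and 11.86 in eGFP libraries 1 to 4 and 11.97, 11.96, 11.95 and 11.95 in Rnf146 libraries 1 to 4, higher in all 4 pairs. The differences of 0.14, 0.11, 0.091 and 0.088 averaged 0.11, more than their SD of 0.025 over the 4 pairs, and the adjusted p of 0.344 missed the threshold too. *Lamp2*, needed for autophagosome fusion, and *Npc1*, the cholesterol exporter, were also higher in all 4 pairs, with means of 0.088 ± 0.049 and 0.090 ± 0.083. *Lamp1*, the most used marker of lysosomes, had a mean of 0.0014 ± 0.058 and a 95% interval from -0.10 to 0.10. *Cln3*, a membrane protein mutated in juvenile ceroid lipofuscinosis, had 0.012 ± 0.13.

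**Figure D3:**
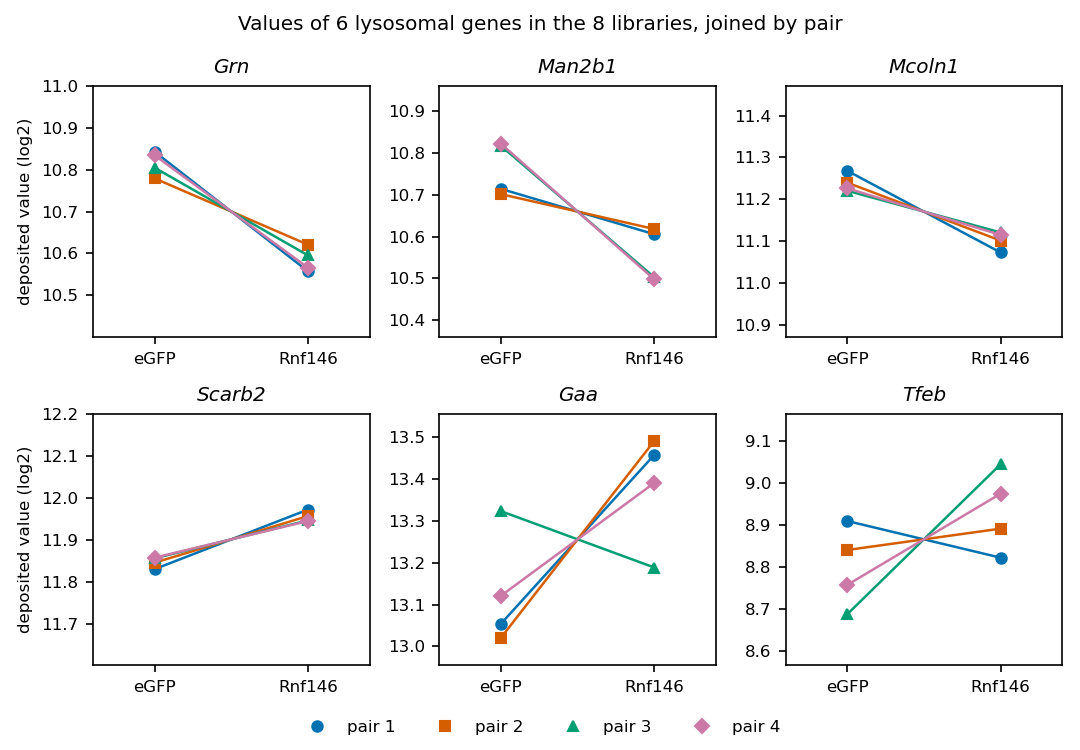
Each panel shows 1 gene, with the deposited log2 value on the y axis (all panels span 0.6) in the eGFP and Rnf146 libraries, and lines join the libraries of a pair. The lines of *Grn*, *Man2b1* and *Mcoln1* all slope down and those of *Scarb2* all slope up, whereas 1 line of *Gaa* (pair 3) and 1 of *Tfeb* (pair 1) runs against the others. The lines cross at 1 point because the values were centred within pairs.

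Lysosomal genes outside the group were taken from 6 further lists. Of 120 listed symbols, 117 had values, 0 were called higher and 2 lower, against 0.818% and 0.432% of all genes. The median difference was -0.024, with 79 genes below and 38 above 0, against 7441 and 7598 of all 15039 genes. In all 4 pairs, 23 genes were lower and 7 were higher, against 10.2% and 10.4% of all genes. Both called genes are used mainly by microglia and macrophages. *Ctss*, a cathepsin that acts in antigen presentation, had differences of -0.27, -0.40, -0.17 and -0.52, with a mean of -0.34 ± 0.15 (adjusted p = 0.069, limma). *Slc11a1*, a metal ion transporter of phagosomes, had -0.24, -0.37, -0.34 and -0.22, with a mean of -0.29 ± 0.074 (adjusted p = 0.038). Leaving out pair 2 or pair 4 took the call from both genes and leaving out pair 3 took it from *Slc11a1*, with differences from -0.40 to -0.28 and from -0.32 to -0.27 over the 4 such fits.

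By list, 1 of 25 other hydrolases (*Ctss*) and 1 of 28 other membrane proteins (*Slc11a1*) were called, with medians of -0.035 and -0.029. *Abca2*, a transporter of oligodendrocytes, had the highest mean of these membrane proteins, 0.10 ± 0.26. Of the 18 subunits and accessory proteins of the V-ATPase, the proton pump that acidifies the lysosome, 0 were called. Their median was -0.038, and their means ran from -0.13 for *Atp6v0b* to 0.068 for *Atp6ap2*. The 12 genes of lysosomal sorting had a median of -0.016, with *Nagpa*, which uncovers the mannose 6-phosphate tag, the lowest at -0.17 ± 0.053 (adjusted p = 0.173, limma) and *Gnptab*, the catalytic partner of *Gnptg*, the highest at 0.077. The 16 *Tfeb* relatives and mTORC1 regulators had a median of 0.0048, from -0.074 for *Flcn* to 0.16 for *Mtor*. The 18 autophagy genes had a median of -0.017, from -0.12 for *Ulk1*, the kinase that starts autophagy, to 0.068 for *Wipi1*. In these last 4 lists 0 genes were called.

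Markers of microglia were on the same side as *Grn*, as were most markers of cortical excitatory neurons, given below. All 12 microglia markers had values, and all 12 had a mean below 0. The median was -0.15, and it was -0.18, -0.20, -0.12 and -0.090 in the 4 pairs. In 9 of the 12 all 4 pairs were lower, against 10.2% of all genes, and 1 of the 12 was called lower, against 0.432%. This was *C1qb*, with a mean of -0.26 ± 0.055 (adjusted p = 0.068, limma), but not without pair 2 or pair 4, when it was -0.24 in both fits. Averaged over the 12 markers, the centred level ran from 9.93 to 9.996 in eGFP libraries and from 9.77 to 9.84 in Rnf146 libraries. After the centring, this gap only restates that the average difference was below 0 in each pair. *Csf1r*, *C1qa* and *C1qc* had means of -0.35, -0.24 and -0.22, whereas *Trem2* and *Fcrls* had -0.022 and -0.0075. The part of these cells in the values of *Grn*, *Ctss* and *Slc11a1* was not tested, and in bulk tissue fewer cells of a type and less RNA per cell cannot be told apart. *Cd68*, a lysosomal membrane gene that is prominent in microglia, had a mean of -0.031 ± 0.11.

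Patterns differed among markers of other cells. The 10 oligodendrocyte markers were higher in pairs 2, 3 and 4 and lower in pair 1, with medians of -0.12, 0.48, 0.94 and 0.53, and 0 were called. The 9 striatal markers had medians of -0.15, 1.39, 0.66 and 0.33, and 0 were called. In 3 of the 9 (*Drd1*, *Drd2* and *Tac1*) all 4 pairs were higher, against 10.4% of all genes. An unadjusted p of 0.05 or less (limma) with a mean above 0 was reached by all 10 oligodendrocyte and 8 of the 9 striatal markers. Over all genes, 12.4% reached such a p in either direction. The 10 markers of cortical excitatory neurons had a median of -0.20, and it was -0.29, -0.33, -0.0045 and -0.18 in the 4 pairs. The mean was below 0 in 9 of the 10, and in 5 of the 10 all 4 pairs were lower, against 10.2% of all genes. Of the 10, 1 was called lower, against 0.432% of all genes. This was *Slc17a7*, at -0.30 ± 0.14 (adjusted p = 0.092, limma), a call lost without pair 1, 2 or 4. The 9 astrocyte markers had a median of -0.012, and 0 were called. Of the 7 interneuron markers, *Gad1*, *Gad2* and *Slc32a1*, used by GABAergic neurons at large, were called higher, by 0.45, 0.64 and 0.53. The other 4, which mark interneuron classes, had means below 0 and were not called, with *Vip* at -0.23 and *Lhx6* at -0.11 lower in all 4 pairs, *Sst* at -0.057 and *Pvalb* at -0.027. Of 6 markers of ependyma and choroid plexus 2 had values, and *Foxj1*, a gene of ciliated ependymal cells, was called higher by 0.32, whereas *Kl* had a mean of -0.043 and was lower in 3 of 4 pairs. Of these 4 calls, that of *Gad2* alone was kept in every fit without 1 pair. Among the lysosomal genes, pair 3 alone was lower in *Gaa*, *Cln3* and *Arsb*. Pair 1 alone was lower in *Tfeb*, *Idua*, *Hexa*, *Ctsz*, *Lamp1* and *Gnptg*, and it alone was higher in *Gla*, *Ctsh*, *Glb1* and *Ids*. Pair 2 alone was lower in *Gusb* and higher in *Naglu*, and pair 4 alone was higher in *Ctsl* and *Tpp1*. In all, 10 genes were higher in 3 pairs, against 24.6% of all genes, and 7 in 1 pair, against 24.0%. How often pair 1 alone ran against the others over all genes was not counted. Median differences of macrophage, oligodendrocyte precursor, endothelial and mural, and glial activation markers were -0.15, 0.056, 0.030 and -0.062, and 0 of them were called. The part of these cell types in the values of the lysosomal genes was not tested.

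**Figure D4:**
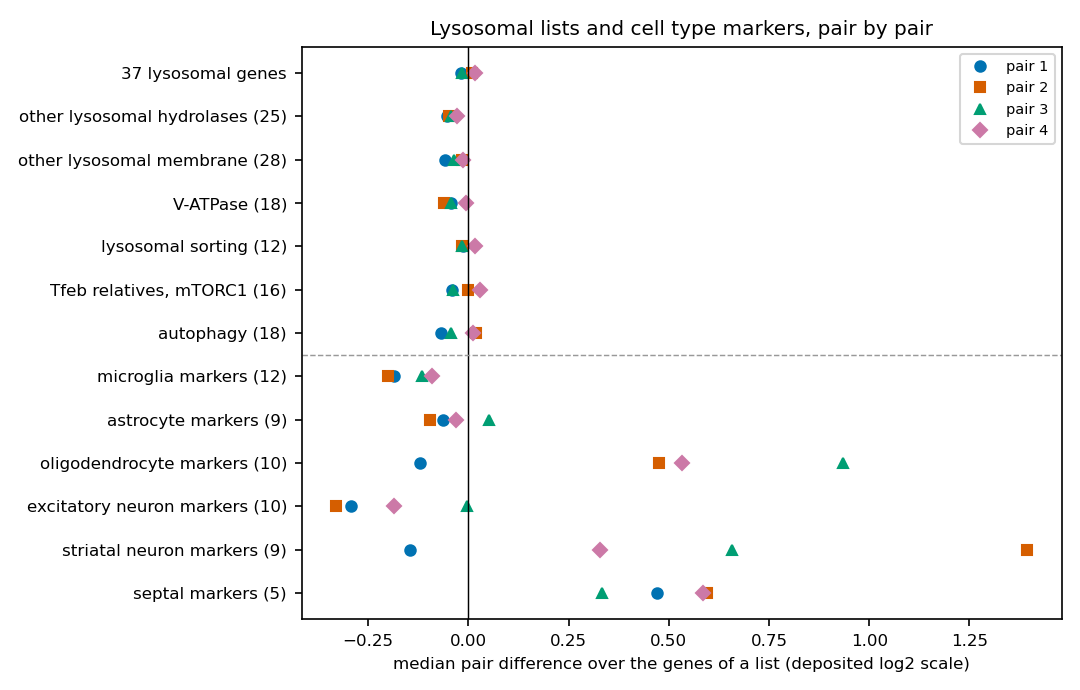
Each row is a list of genes, with the number measured in brackets, and each symbol is the median Rnf146 minus eGFP difference over that list in 1 pair (x axis, deposited log2 scale). The lysosomal lists above the dashed line lie between -0.069 and 0.029 in every pair, the microglia markers between -0.20 and -0.090, and the oligodendrocyte and striatal markers spread from below 0 in pair 1 to 0.94 and 1.39.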

How the data were processed

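RNA sequencing of PFC tissue gave 8 libraries, 4 per group, mapped to their labels by column name. The authors trimmed the reads with Cutadapt, quantified transcripts with Salmon 1.9.0 against GENCODE vM30 (GRCm39) and deposited log2 values for 15039 gene symbols, from 7.86 to 18.8, in a table named as normalized counts. The labels also name DESeq2, but how the values were normalized, transformed and centred is not given in the sources used here. Within a gene, the pair sums differed by at most 1.42e-13, which fixes the correlation of same-numbered libraries, so the replicate number was used as a block, leaving 3 residual degrees of freedom in place of 6. The median SD of pair differences ran from 0.094 to 0.10 in 4 equal classes of expression level, and on such a scale changes of weakly expressed genes can be understated. Levels were not compared between genes. Depth, and the precision it gives, is unknown.

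The fits used lmFit and a trended eBayes of limma 3.58.1 (R 4.3.3), and p-values were adjusted by Benjamini and Hochberg's method across all genes. The script was tested on simulated data. Within the 37 genes, values are given in every library for genes called, for genes in 1 direction in all pairs with an unadjusted p of 0.05 or less, for *Tfeb*, and for the highest and the lowest gene of each role. The genes, lists and tests were chosen with earlier results of these data known, *Fam171a2*, *Cd68* and the uncalled markers named singly after their values were seen. Gene positions are from GENCODE vM39 (GRCm39) and promoter sequences from RefSeq (GRCm38.p6), both matched by symbol. Some single genes of the further lists are not reported here. Python 3.11.15 with pandas 2.3.3 was used for the summaries. Alternatives were no block, each pair left out, quantile normalization, equal column medians, removal of genes with a mean under 8.99, untrended or robust variances and an adjusted p of 0.05.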

Additional observations from a re-analysis of the deposited data

Results flagged for a closer look

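In 1 of 38 genes examined (the 37 lysosomal genes and *Rnf146*), 1 pair stood far from the other 3 by Dixon's criterion for 4 values, which chance meets in about 1 of 20 groups. *Ctsz*, a cysteine cathepsin, had a difference of -0.277 in pair 1 and of 0.062, 0.042 and 0.020 in pairs 2, 3 and 4, so that the gap made up 0.874 of the whole range, above the critical value. Because the values were centred within pairs, the same gap is seen in the eGFP and in the Rnf146 libraries, and which of the 2 libraries of pair 1 carries it cannot be told apart.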

How the results depend on the processing

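*Rnf146* was called under every alternative, with differences from 2.58 to 2.69. Removal of genes with a mean under 8.99 left 35 of the 37 lysosomal genes, without *Tfeb* and *Naglu*. The number of lysosomal genes called was 1 (*Grn*) under quantile normalization, equal column medians, removal of genes with a mean under 8.99, untrended and robust variances. It was 9 without the replicate block and 0 at an adjusted p of 0.05, and it ran from 0 to 1 with each pair left out, the 1 being *Gaa* without pair 3, since *Grn* was called in none of these fits. The number of genes called over all genes was 188 with the block and 3226 without it, and ran from 14 to 421 with a pair left out. The pairing rests on the centring of the deposited values. Genes higher in all remaining pairs numbered from 4 to 10, and genes lower from 5 to 9, with a pair left out, since 3 pairs have the same sign more often than 4. The median difference of the group stayed between -0.024 and -0.0089. Under quantile normalization *Ids* turned to 0.012 and *Naglu* to -0.0077, and *Ctsb* moved to -0.027, *Psap* to -0.023, *Sgsh* to -0.026, *Gusb* to -0.011, *Manba* to 0.0088, *Cln3* to 0.0033 and *Lamp1* to 0.0078. With equal column medians *Gusb* moved to -0.0014 and *Lamp1* to 0.0035. With a pair left out, 16 genes with means near 0 changed sign. The ranges were *Ctsf* -0.116 to 0.0026, *Ctsz* -0.072 to 0.041, *Lamp1* -0.016 to 0.029, *Npc2* -0.018 to 0.056, *Hexa* -0.064 to 0.048, *Gusb* -0.039 to 0.046, *Ids* -0.071 to 0.012, *Naglu* -0.028 to 0.028, *Ppt1* -0.0094 to 0.059, *Tpp1* -0.059 to 0.031, *Cln3* -0.024 to 0.071, *Lipa* -0.045 to 0.0046, *Sgsh* -0.043 to 0.0068, *Arsa* -0.074 to 0.032, *Galns* -0.11 to 0.043 and *Galc* -0.0089 to 0.082. Other genes kept their sign but moved by over 1.5 times in at least 1 of these fits, with ranges of *Ctsh* -0.20 to -0.016, *Tfeb* 0.061 to 0.21, *Idua* 0.042 to 0.19, *Gaa* 0.18 to 0.38, *Ctsd* -0.12 to -0.051, *Ctsb* -0.088 to -0.024, *Ctsl* -0.15 to -0.061, *Ctsa* -0.043 to -0.021, *Gla* -0.14 to -0.056, *Glb1* -0.079 to -0.027, *Neu1* -0.094 to -0.015, *Psap* -0.054 to -0.012, *Gnptg* 0.011 to 0.043, *Arsb* 0.00097 to 0.085 and *Npc1* 0.054 to 0.12. Apart from the shorter series of pairs and the counting of degrees of freedom without the block, the cause was not tested. The change of pseudocount was not run, as the values are already log2. Depth is unknown.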
